A study of Mus musculus with 4 samples.

Results

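Ribosome biogenesis factors are the nucleolar and nuclear proteins that make, trim, modify and assemble ribosomal RNA into the small (40S) and large (60S) ribosomal subunits. The 50 genes described here were listed by name for their function in this pathway, with earlier results of these data known. All 50 had at least 1 probe set that the platform annotation gives to a single gene, out of 18193 genes measured this way. They were divided by role into 7 RNA polymerase I and nucleolar transcription factors, 8 proteins of small nucleolar ribonucleoproteins (snoRNPs), 19 small subunit factors and 16 large subunit factors. Each gene was read by its brightest probe set, chosen on mean log2 signal over the 4 arrays, and 34 of the genes had more than 1 probe set.

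RNA abundance was measured on 4 Affymetrix arrays of mouse bone marrow cells sorted for low lineage markers, Sca-1 and c-kit (LSK cells), which include the blood stem cells. The β-catenin day 3 and eGFP day 3 arrays came from LSK cells collected 3 days after transduction with a β-catenin or an enhanced green fluorescent protein (eGFP) retrovirus. The DKmix day 50 and DKmix day 300 arrays came from β-catenin-transduced LSK cells after 50 and 300 days in culture. All 4 samples shared a serum medium with IL-3, SCF, Flt3 and IL-11. The mouse strain, the age of the animals, the promoter of the vector and the clonality of the DKmix cells were not stated in the labels. Each group held 1 array, so there is no replicate error, no test was possible, and every difference is one between 2 single arrays. In such bulk samples, a lower signal from fewer cells that express a gene and from less RNA per cell cannot be told apart.

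Ribosome production starts when RNA polymerase I copies the ribosomal DNA into a long precursor. The small subunit processome, built around the U3 snoRNP, cuts that precursor and folds its 18S part, while box C/D and box H/ACA snoRNPs methylate and pseudouridylate it. Large subunit precursors mature with the help of the PeBoW complex, GTPases and AAA-ATPases. Dividing progenitor cells have a high demand for ribosomes, and MYC, which binds the E-box CACGTG, is a textbook activator of many of these genes.

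Because most members followed one order over the arrays, their promoters were searched for the E-box CACGTG, which reads the same on both strands, and for the ETS-type motif CCGGAAG on either strand. RefSeq promoter windows (GRCm38.p6, 250 bases before to 50 after each annotated start) were on hand for 44 of the 50 genes. The E-box was in a window of 10 of these 44 (22.7%), compared with 8.09% of all 27025 genes with a window and 10.7% of the 12190 with an array signal above the floor. By role it was in 6 of 18 small subunit factors, 3 of 13 large subunit factors, 1 of 6 RNA polymerase I and nucleolar factors and 0 of 7 snoRNP proteins. The ETS-type motif was in 17 of the 44 (38.6%), against 9.93% of all genes with a window and 16.7% of those above the floor. Cytosolic ribosomal protein genes held the ETS-type motif at 48.7% and the E-box at 10.3%. A match describes the letters of the window and not a bound site.

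The 10 E-boxes are printed because they let the member genes be compared at the same motif. Each stretch runs 5′ to 3′ on the gene's strand, with the E-box in capitals and up to 12 bases on either side, fewer where the window ended.
Imp4: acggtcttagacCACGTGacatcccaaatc
Nop2: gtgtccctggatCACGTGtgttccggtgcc
Utp18: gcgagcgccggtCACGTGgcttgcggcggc
Pes1: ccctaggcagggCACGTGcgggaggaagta
Wdr43: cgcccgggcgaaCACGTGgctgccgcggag
Nle1: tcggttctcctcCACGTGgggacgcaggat
Tsr1: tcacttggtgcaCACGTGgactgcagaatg
Ltv1: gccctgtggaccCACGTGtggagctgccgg
Utp20: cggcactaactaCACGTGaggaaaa
Mybbp1a: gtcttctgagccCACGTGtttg

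The motif lay before the annotated start in 3 genes, at 121 bases in Imp4 (chr1:34439696-34439725, plus strand), 60 bases in Nop2 (chr6:125131811-125131840, plus strand) and 20 bases in Utp18 (chr11:93885769-93885798, minus strand). In the other 7 it lay within the first transcribed bases. Counting the first transcribed base as 1, it began at base 3 in Pes1 (chr11:3963965-3963994, plus strand), 18 in Wdr43 (chr17:71616220-71616249, plus strand) and 24 in Nle1 (chr11:82908355-82908384, minus strand). It began at base 25 in Tsr1 (chr11:74898092-74898121, plus strand), 29 in Ltv1 (chr10:13193092-13193121, minus strand), 38 in Utp20 (chr10:88826765-88826789, minus strand) and 41 in Mybbp1a (chr11:72441355-72441376, plus strand).

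Nop2 and Utp18 carried both motifs upstream of the start, so their last 150 bases before the start are shown, with both motifs in capitals. They lie at chr6:125131733-125131882 (plus strand) and chr11:93885767-93885916 (minus strand). The ETS-type motif began 38 bases before the start in Nop2 and 106 bases before it in Utp18.
Nop2: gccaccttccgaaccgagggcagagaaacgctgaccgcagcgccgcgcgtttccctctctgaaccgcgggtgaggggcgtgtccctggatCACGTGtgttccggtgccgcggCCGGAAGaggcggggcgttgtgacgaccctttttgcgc
Utp18: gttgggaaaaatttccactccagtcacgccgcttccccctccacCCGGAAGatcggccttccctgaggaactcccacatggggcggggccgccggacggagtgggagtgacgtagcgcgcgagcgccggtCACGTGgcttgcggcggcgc

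Ratios of the 10 genes with an E-box were set beside those of the others, with no test. Their median log2 ratio of DKmix day 300 over β-catenin day 3 was -1.59, and that of the 34 without one was -1.55. Between β-catenin and eGFP at day 3 the medians were 0.52 and 0.52. At DKmix day 50 they were -1.58 and -1.31 over β-catenin, and -0.94 and -0.76 over eGFP. At DKmix day 300 over eGFP they were -1.002 and -0.979, and over DKmix day 50 they were -0.21 and -0.40 (33 genes without). Among the 10, Mybbp1a and Nle1 had the lowest ratios at day 300 and Ltv1 was level with day 3. For the ETS-type motif, medians with (17 genes) and without it (27 genes) were -1.34 and -1.91 at DKmix day 300 over β-catenin. They were -1.27 and -1.67 at DKmix day 50 over β-catenin, and 0.33 and 0.55 at day 3. Over eGFP they were -0.57 and -0.84 at day 50, and -0.99 and -0.87 at day 300. For day 300 over day 50 they were -0.43 and -0.26 (26 genes without). These differences were not tested.

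Intensities are linear signals, scaled so that all 4 arrays had the same trimmed mean. Any value under 48.3, the pooled median, was raised to that floor before ratios were taken, and "at least" marks a ratio with 1 array below it. All 50 members were above the floor on each of the day 3 arrays, 49 at DKmix day 50 and 48 at DKmix day 300. Over all 18193 genes, between 10294 (56.6%) and 11691 (64.3%) were above it. Quality controls differed between arrays. Gapdh, read near both ends of its transcript, had a 3′/5′ ratio of 1.18 with β-catenin and 1.06 at DKmix day 300, but 4.14 with eGFP and 4.96 at DKmix day 50. The β-actin control gave 1.32, 1.20, 1.83 and 3.41 in that order. The pair β-catenin day 3 and DKmix day 300 therefore had like Gapdh ratios, and so had eGFP day 3 and DKmix day 50, while the other pairs did not. Kit, which encodes the sorting marker c-kit, was weak at day 3, with 82.9 and 55.8 on the β-catenin and eGFP arrays. Flt3, which was not used in the sort, was below the floor on all 4. Ly6a, which encodes Sca-1, was not analysed here.

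**Figure D1:**
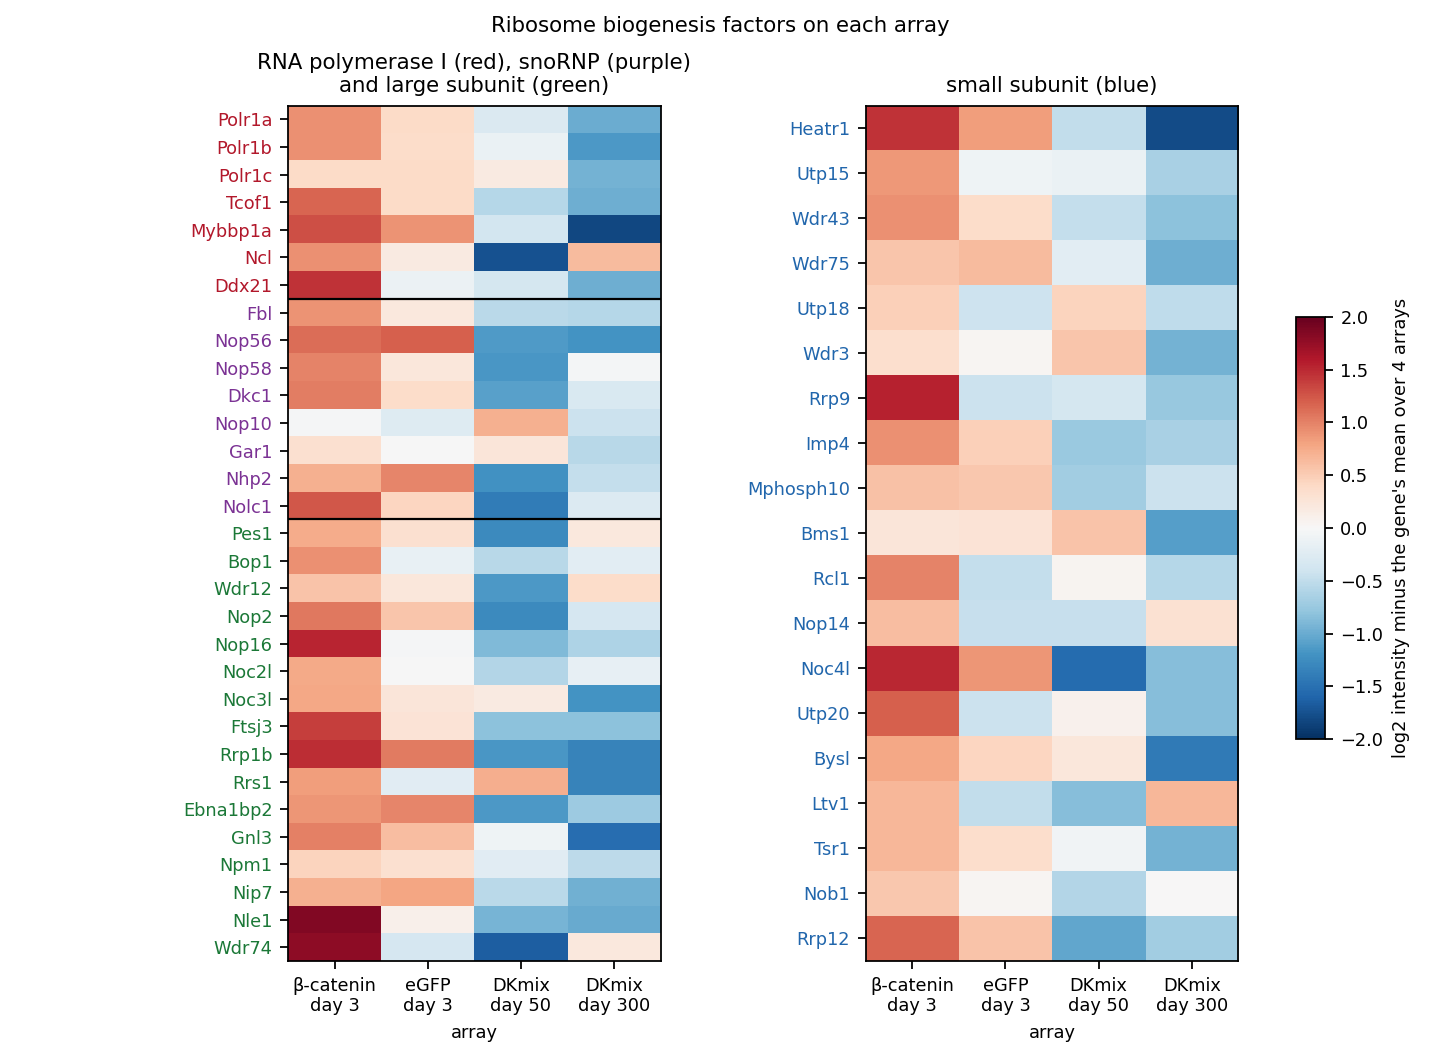
Heat map of the 50 genes (rows, names coloured by role) on the 4 arrays (columns), as log2 floored intensity minus the gene's mean over the 4 arrays, with red above and blue below that mean. The β-catenin day 3 column is the highest for 42 genes, and the lowest value is at DKmix day 50 for 20 genes, at DKmix day 300 for 29 and at the floor on both for Ftsj3.

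Taken over all 4 arrays, most members followed one order. The β-catenin day 3 array was the highest for 42 of the 50, where 22.6% of the 15298 genes above the floor on at least 1 array had their highest value there. The lowest value was on a DKmix array for all 50, against 37.9% of all genes. It was at day 50 for 20 and at day 300 for 29, and Ftsj3 was below the floor on both. In 31 genes the order was β-catenin, then eGFP, then both DKmix arrays, against 8.11% of all genes. The 8 exceptions at the top were Nop56, Nhp2, Wdr75, Ebna1bp2 and Nip7, which were highest with eGFP, and Nop10, Wdr3 and Bms1, which were highest at DKmix day 50.

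For 36 members both DKmix values were below both day 3 values, against 16.8% of all genes. At 2-fold separation this held for 12 of 50, against 2.68% of all genes, and the reverse held for 0. The 12 were Mybbp1a, Nop56, Nhp2, Heatr1, Imp4, Noc4l, Rrp12, Ftsj3, Rrp1b, Ebna1bp2, Nip7 and Nle1. Dimmer probe sets of some of them, such as Noc4l, Mybbp1a and Rrp1b, did not show this separation.

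The comparison of β-catenin with eGFP at day 3 sets the β-catenin virus against its control. Members were higher with β-catenin in 44 of 50 cases, with a median log2 ratio of 0.55, where the median of all 13374 genes measured was -0.014. Of all 13374 genes, 6593 were higher with β-catenin. At least 2-fold higher were 12 of 50 members, against 10.2% of all genes, and 0 were at least 2-fold lower, against 9.41%. Just short of 2-fold were Utp15 (1.92-fold) and Utp18 (1.87-fold). By role, the 2-fold count was 1 of 7 RNA polymerase I and nucleolar factors, 0 of 8 snoRNP proteins, 5 of 19 small subunit factors and 6 of 16 large subunit factors. The medians of the roles lay close together, between 0.50 and 0.59. The order of the roles depended on the probe set. By the second-brightest one, the median was 1.35 for 6 snoRNP proteins and 1.32 for 6 RNA polymerase I and nucleolar factors. It was 0.92 for 5 small subunit factors and 0.32 for 4 large subunit factors. By it Fbl (1.41), Nop56 (1.29), Dkc1 (1.98) and Nolc1 (2.46) were past 2-fold, while Nop10 (0.62) and Nhp2 (0.21) were not. Of the 12 genes, 3 had another probe set above the floor (Ddx21, Nop16 and Rrs1), and 0 of these 3 had the same sign by it. The other 9 rested on 1 measured probe set each.

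The RNA polymerase I group contains the enzyme's own subunits and the factors around it. Polr1a, the largest subunit, gave intensities of 652 with β-catenin, 455 with eGFP, 283 at DKmix day 50 and 174 at DKmix day 300. Polr1b, the second-largest subunit, gave 316, 216, 152 and 75.3 in the same order of arrays. Polr1c, a subunit shared with RNA polymerase III, gave 922, 917, 799 and 364. By these probe sets all 3 subunits were lowest at day 300, and Polr1c was alike on both day 3 arrays. Other probe sets of Polr1a gave 389.5, 119, 62.6 and 108, lowest at day 50, and 517, 56.4, 134 and 66.4, lowest with eGFP.

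At DKmix day 300 the subunits were 3.75-fold (Polr1a), 4.20-fold (Polr1b) and 2.53-fold (Polr1c) below β-catenin day 3. For Polr1c the probe sets disagreed: its dimmer one gave 301, 209, 129 and 354, with no lower value at day 300. Tcof1, the treacle protein that helps polymerase I at the ribosomal DNA, gave 647, 377, 195 and 146, a 4.43-fold difference between β-catenin day 3 and DKmix day 300. Its other probe sets gave 649, 117, 100.1 and 190, and 364, 170.5, 153 and 192, both highest with β-catenin and lowest at day 50.

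Mybbp1a, a nucleolar protein that represses or aids ribosomal DNA transcription depending on context, gave 4611, 3528, 1471 and 537. It was 8.59-fold lower at day 300 than with β-catenin at day 3. Its other probe set gave 1176, 405, 153 and 325 and was lowest at day 50. Ddx21, an RNA helicase of the nucleolus, gave 907 with β-catenin and 306 with eGFP, 2.96-fold apart, and 259.9 and 168 on the DKmix arrays. Its other probe set gave 269.7, 314, 396 and 167 and did not show the day 3 difference.

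Ncl, nucleolin, which binds the precursor and ribosomal DNA chromatin, took a different course by its brightest probe set. It gave 4495 and 2698 at day 3, 713 at DKmix day 50 and 3705 at DKmix day 300. The day 50 value was 6.31-fold below β-catenin day 3, while the day 300 value was only 1.21-fold below. Of its 4 other probe sets, the brightest gave 1445, 396, 364 and 520.3 and was lower on both DKmix arrays than with β-catenin. The rest gave 312, 609, 391 and 251, then 333, 336, 148 and 110.4, and 138, 146, 11.7 and 20.4. All 4 were lower at day 300 than with β-catenin.

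Among snoRNP proteins, 6 of 8 were at least 2-fold below β-catenin day 3 on each DKmix array, against 15.7% of all genes at day 50 and 14.4% at day 300. Box C/D particles methylate ribosomal RNA. Their methylase fibrillarin (Fbl) gave 4747 with β-catenin, 2928 with eGFP, and 1749 and 1709.8 on the DKmix arrays. The core proteins Nop56 and Nop58 gave 3629.9, 3834, 760.3 and 732, and 948, 557, 214 and 464. Nop56 was alike at day 3 on both arrays and 4.77-fold and 4.96-fold below β-catenin on the DKmix arrays. Nop58 was 4.42-fold lower at day 50 and 2.05-fold lower at day 300.

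Box H/ACA particles pseudouridylate ribosomal RNA and also stabilise the telomerase RNA. Their pseudouridine synthase dyskerin (Dkc1) gave 786, 496, 182 and 311, and Nhp2 gave 4536, 5415, 1194 and 1994. Both were lowest at day 50 by these probe sets. Other probe sets of Dkc1 gave 1086, 275, 117 and 334, and 149, 80.9, 90.1 and 50.1, the latter lowest at day 300. The small partner proteins had other values: Nop10 gave 5710, 4826, 9524 and 4315, and Gar1 gave 1052, 835, 996 and 572. Nop10 had the highest DKmix day 50 over β-catenin day 3 log2 ratio of all members (0.74), and neither Nop10 nor Gar1 was 2-fold lower on a DKmix array. By its other probe set Nop10 gave 1194, 778, 1078 and 598. Nolc1, a chaperone that shuttles snoRNPs, gave 1049, 599, 169 and 368.

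Small subunit factors begin with the t-UTP proteins, which join the precursor during transcription. Heatr1 (UTP10) gave 1177, 768, 307 and 124, in the order used above. Its 9.52-fold difference between β-catenin day 3 and DKmix day 300 was the largest among members above the floor on both arrays. Utp15 gave 397, 206, 199 and 139, Wdr43 (UTP5) gave 915, 626, 349.9 and 275, and Wdr75 (UTP17) gave 350.2, 368, 207 and 121. All 4 were lowest at day 300, by 2.86-fold to 9.52-fold from β-catenin day 3.

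Utp18 and Wdr3 (UTP12) belong to the UTP-B complex. Utp18 gave 169, 90.5, 165 and 85.3, and Wdr3 gave 642, 524, 748 and 264. Both had day 50 values near or above β-catenin day 3 and were lower at day 300 than at day 50, by 1.93-fold and 2.83-fold. Utp20, a large scaffold protein of the processome, gave 437, 141, 201 and 105.

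Rrp9, a U3-specific protein, gave 689 with β-catenin and 177 with eGFP, 3.89-fold apart, and 185 and 140.4 on the DKmix arrays. Its eGFP and DKmix values were therefore alike, and the β-catenin array alone was high. The other U3 partners did not share this: Imp4 gave 735, 544, 232 and 249.5, and Mphosph10 gave 661, 638, 273 and 326. The GTPase Bms1 gave 2734, 2791, 3445 and 1082 and was 2-fold lower only at day 300, while its other probe set gave 659, 317, 273 and 285. Its partner Rcl1 gave 637, 229, 333 and 215, so β-catenin exceeded eGFP by 2.77-fold.

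Nop14 and Noc4l act together in 40S assembly and export. Nop14 gave 483, 229, 227 and 386, so its day 300 value lay between the day 3 values. Noc4l gave 2058, 1329.8, 250.1 and 399, and was 8.23-fold lower at day 50 and 5.16-fold lower at day 300 than with β-catenin. Its next probe set gave 1316, 634, 232 and 261. The dimmest ones gave 480.3, 425, 357 and 93.5, and 289, 261, 339.9 and 77.4. By these Noc4l was lower at day 300 but within 2-fold of β-catenin at day 50.

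Late 40S factors finish and export the small subunit. Bysl gave 863, 681, 594 and 189.7, Tsr1 gave 946, 757, 569 and 308, and Rrp12, which helps export both precursors, gave 391, 259, 84.8 and 107. Nob1, the nuclease that makes the 3′ end of 18S RNA, gave 723, 515, 331 and 502. Ltv1, an export adaptor, gave 555, 249, 194 and 550.4. Ltv1 was equal on β-catenin day 3 and DKmix day 300 (1.01-fold apart) and was the only member at least 2-fold above eGFP day 3 at day 300.

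The PeBoW complex, made of Pes1, Bop1 and Wdr12, processes the large subunit precursor. Pes1 gave 898, 674, 224 and 626, Bop1 gave 1117, 536, 407 and 513, and Wdr12 gave 706, 559, 215 and 613. All 3 were lowest at day 50. At day 300 Pes1 and Wdr12 were 2.80-fold and 2.85-fold above day 50 and within 1.43-fold of β-catenin day 3, while Bop1 was 2.18-fold below β-catenin. The dimmer probe sets of Pes1 (59.2, 83.4, 56.0 and 24.7) and Wdr12 (98.5, 166, 114 and 62.1) were not higher at day 300 than at day 50.

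Wdr74 and Nle1 act with AAA-ATPases on nuclear 60S precursors, and both were high on β-catenin day 3 alone. Wdr74 gave 1012 with β-catenin, 232 with eGFP, 93.6 at day 50 and 338 at day 300. Nle1 gave 351, 104, 51.0 and 29.8, the last below the floor. They had the highest day 3 differences of the large subunit group, 4.35-fold and 3.36-fold. They parted at day 300, where Wdr74 was 3.61-fold above day 50 and Nle1 at least 7.27-fold below β-catenin day 3.

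Among the other nuclear 60S factors, Nop16 gave 1369, 469, 257 and 310.4, a 2.92-fold excess of β-catenin over eGFP. The RNA methylase Nop2 gave 1095, 779, 219 and 420.2. Noc2l and Noc3l, which form a heterodimer in yeast, gave 1001, 589, 395 and 529.8, and 329, 228, 217 and 84.1. By these probe sets they differed on the DKmix arrays. The other probe set of Noc2l gave 186, 168, 192 and 15.6, the last below the floor. By it Noc2l, like Noc3l, was lowest at day 300. Ftsj3, a methylase homologue, gave 222, 103, 29.3 and 2.40, with both DKmix values below the floor, so it was at least 4.60-fold lower than with β-catenin.

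Rrp1b gave 1134, 834, 182 and 161, a 7.03-fold difference at day 300, and by its next probe set 716, 232, 139.7 and 228. Rrs1, which brings the 5S particle into the precursor, gave 410, 195, 379 and 90.3. It was 4.19-fold lower at day 300 than at day 50, the largest such difference among members above the floor on both arrays. Ebna1bp2 gave 2004, 2139.9, 490.1 and 653, and Nip7 gave 1211, 1289, 511 and 381. The nucleolar GTPase nucleostemin (Gnl3) gave 2005, 1527, 944 and 347. Nucleophosmin (Npm1), the abundant nucleolar chaperone, gave 9868, 9065, 6188 and 5029. Npm1 stayed within 2-fold on all arrays by this probe set, while its other one gave 11872, 7361, 3907 and 7554.

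**Figure D2:**
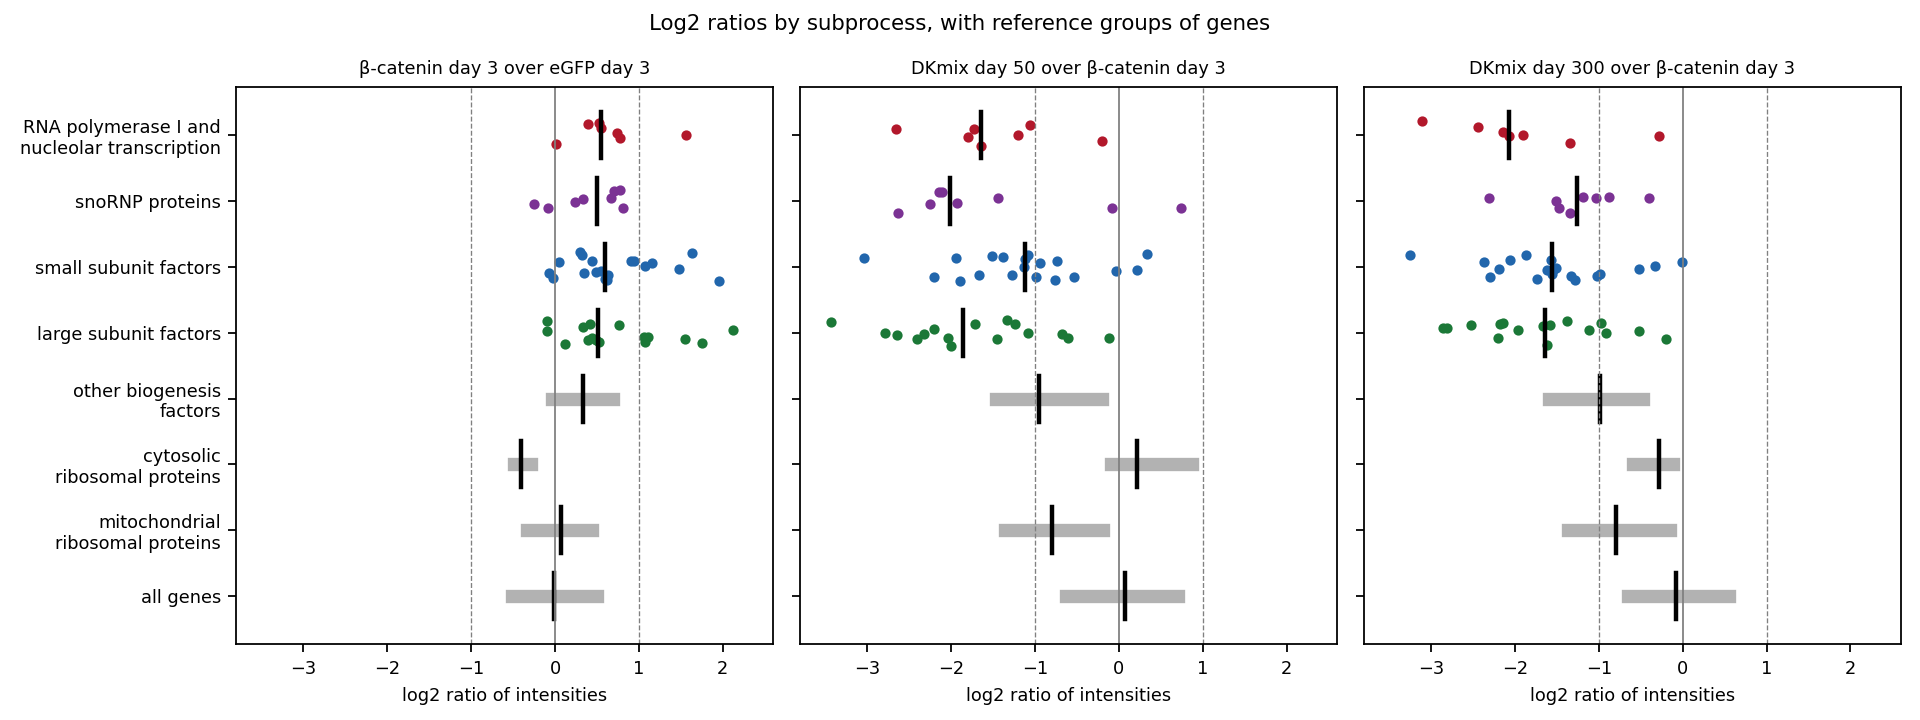
Log2 ratios of intensities (horizontal axis) for the 50 genes by role in 3 comparisons. Points are genes, black bars are medians, grey bars are the interquartile range of reference groups and dashed lines mark 2-fold. Every point lies left of 0 in the comparison of DKmix day 300 with β-catenin day 3, while the medians of all genes lie between -0.08 and 0.07.

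Between β-catenin day 3 and DKmix day 300, a pair with like Gapdh ratios, all 50 members were lower at day 300. Of all 12664 genes measured, 6794 were lower there. The median log2 ratio was -1.56, against -0.076 over all 12664 genes measured, with member values from -3.25 to -0.01. At least 2-fold lower were 39 of 50, against 14.4% of all genes, and 0 were at least 2-fold higher, against 14.0%. The 11 others were Ncl, Nop10, Gar1, Utp18, Nop14, Ltv1, Nob1, Pes1, Wdr12, Noc2l and Npm1. Medians by role were -2.07 for RNA polymerase I and nucleolar factors, -1.26 for snoRNP proteins, -1.56 for small subunit factors and -1.64 for large subunit factors. The SD of a single probe set's log2 ratio, taken from the differences between 2 probe sets of a gene, was 0.66 in this pair (2301 genes). That SD describes probe sets on these arrays and not the spread between samples.

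At DKmix day 50 the members were also low. Of 50, 36 were at least 2-fold below β-catenin day 3 (15.7% of all genes) and 0 at least 2-fold above (16.0%), with a median of -1.45 against 0.067 for all genes. The 3 members above β-catenin at day 50 were Nop10, Wdr3 and Bms1. By role, 6 of 7 RNA polymerase I and nucleolar factors, 6 of 8 snoRNP proteins, 11 of 19 small subunit factors and 13 of 16 large subunit factors were at least 2-fold lower. The probe set SD was larger for this pair, at 0.82.

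Both DKmix comparisons share the β-catenin day 3 array, on which 42 members were at their highest, so the eGFP array was used as another reference. At least 2-fold below eGFP day 3 were 21 members at day 50 (15.0% of all genes) and 24 at day 300 (15.8%). At least 2-fold above it were 0 at day 50 (15.5%) and 1 at day 300 (15.8%). The medians were -0.79 and -0.98, against 0.035 and -0.10 for all genes. Most members were thus lower on the DKmix arrays by either day 3 reference. The day 300 value against eGFP depended on the probe set and the scale: with the second-brightest probe set the median was -0.44 with 16 members at least 2-fold lower, and on the hybridisation control scale it was -1.53 with 36 lower. Over all genes, 1900 of 12773 and 4115 of 12712 were at least 2-fold lower in these settings. Heatr1, Mybbp1a, Nop56 and Rrp1b were 6.21-fold, 6.57-fold, 5.24-fold and 5.17-fold below eGFP at day 300. By the next brightest probe set, log2 ratios to eGFP at day 300 were -0.32 for Mybbp1a, -1.47 for Nop56 and -0.03 for Rrp1b, so Mybbp1a and Rrp1b were near the eGFP level by it.

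**Figure D3:**
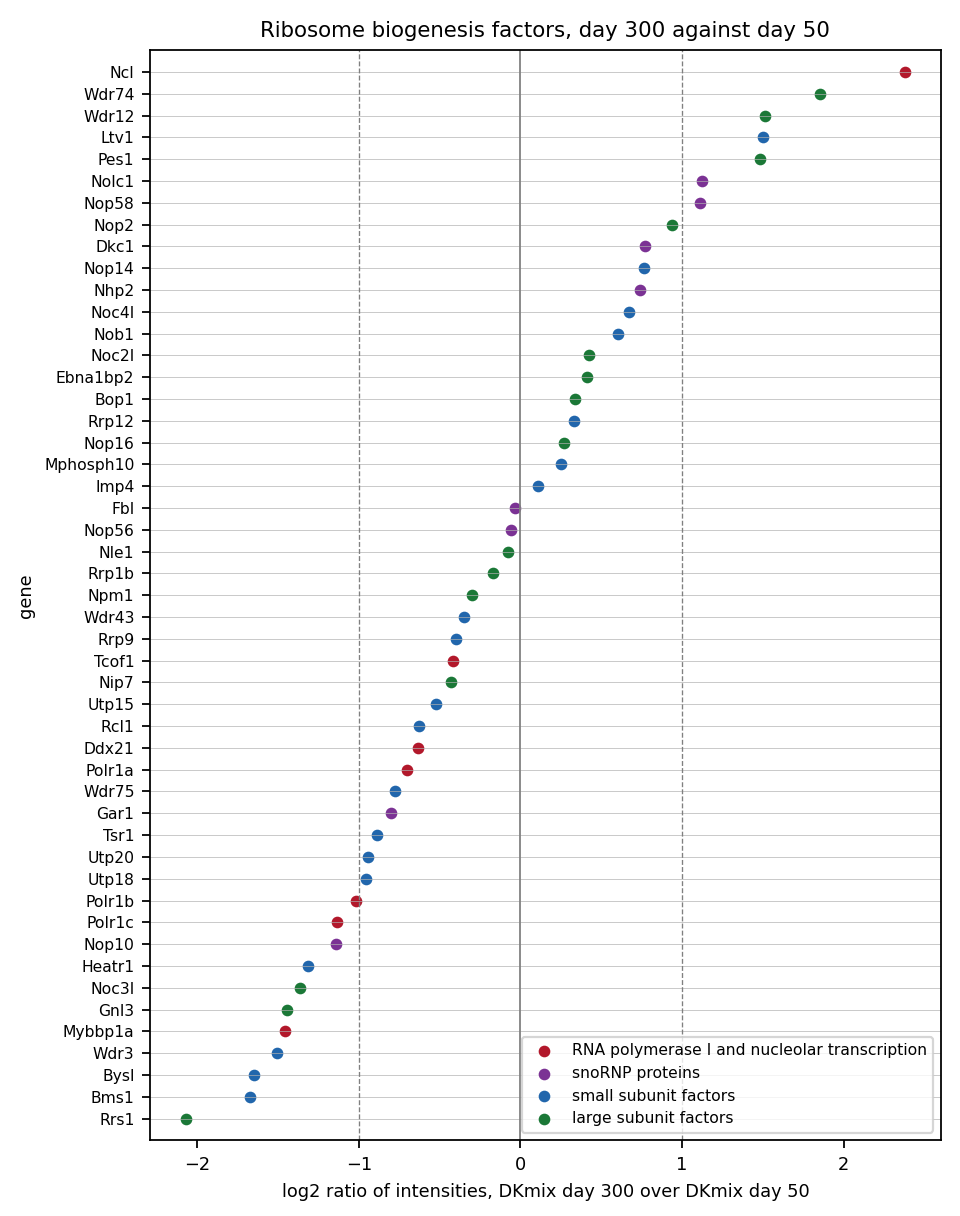
Log2 ratio of DKmix day 300 over DKmix day 50 (horizontal axis) for the 49 genes above the floor on at least 1 of the 2 arrays, sorted and coloured by role, with dashed lines at 2-fold. Ncl lies highest at 2.38 and Rrs1 lowest at -2.07, with 20 genes above 0 and 29 below.

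Day 300 and day 50 differed in both directions. Of 49 members measured, 7 were at least 2-fold higher at day 300 (15.1% of all genes) and 11 lower (15.8%), shares near those of all genes for the higher side and somewhat above for the lower. The median was -0.30, against -0.14 for all genes. Of all 13100 genes measured, 7302 were lower at day 300 than at day 50. The higher 7 were Ncl, Wdr74, Wdr12, Ltv1, Pes1, Nolc1 and Nop58. The lower 11 were Polr1b, Polr1c, Mybbp1a, Nop10, Heatr1, Wdr3, Bms1, Bysl, Noc3l, Rrs1 and Gnl3. Among RNA polymerase I and nucleolar factors 6 of 7 were lower at day 300 than at day 50, with a median of -0.70, while snoRNP proteins had a median of 0.35, with 4 higher and 4 lower. This pair also had the largest probe set SD of the 6, at 0.91, and the difference between roles was not tested. For the RNA polymerase I and nucleolar factors the direction turned with the probe set. Of the 6 with another one above the floor on all arrays, 5 were higher at day 300 by it (Polr1a, Polr1c, Tcof1, Mybbp1a and Ncl) and 1 lower (Ddx21), with a median of 0.65.

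The members' probe sets were then compared with each other. For 21 members, 2 probe sets were above the floor on all 4 arrays. In the pair with like Gapdh ratios, β-catenin day 3 and DKmix day 300, both probe sets had the same sign in 20 of 21 and differed by a median of 0.46 on the log2 scale, and in 14 of 21 both were at least 2-fold lower at day 300. In the other like pair, eGFP day 3 and DKmix day 50, the sign was shared by 18 of 21 with a median difference of 0.51. By the β-actin control this pair was less alike, with 3′/5′ ratios of 1.83 and 3.41. The sign was shared by 69.8% of 2769 genes for DKmix day 300 over β-catenin and by 66.7% for DKmix day 50 over eGFP.

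In the 4 unlike pairs the members' probe sets lay farther apart. Between β-catenin and eGFP at day 3 the sign was shared by 15 of 21 and the median difference was 1.09. The dimmer probe set gave the higher ratio in 17 of 21, and 11 of 21 were at least 2-fold higher by it, against 2 by the brighter. Nop56, alike at day 3 by its brighter probe set, had intensities of 2435 and 993 by the other on the β-catenin and eGFP arrays, and Nolc1 had 957 and 174. For DKmix day 50 over β-catenin the median difference was 1.01, and for DKmix day 300 over DKmix day 50 it was 1.05, with the sign shared by 10 of 21. For DKmix day 300 over eGFP day 3 it was 0.95, with the sign shared by 15 of 21. Over all 2769 genes with such pairs the median differences in the like pairs were 0.57 for DKmix day 300 over β-catenin and 0.63 for DKmix day 50 over eGFP. In the unlike pairs they were 0.55 at day 3, 0.76 for DKmix day 50 over β-catenin, 0.91 for DKmix day 300 over day 50 and 0.74 for DKmix day 300 over eGFP. Over all genes the difference was therefore larger in 3 of the 4 unlike pairs than in either like pair, but not at day 3. The sign was shared by 61.1% of these genes at day 3 and by 65.6% for DKmix day 50 over β-catenin. It was shared by 57.0% for DKmix day 300 over day 50 and by 63.8% for DKmix day 300 over eGFP. At day 3 the dimmer probe set gave the higher ratio in 1565 of the 2769. Whether RNA quality had a part in the day 3 and day 50 differences was not tested.

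**Figure D4:**
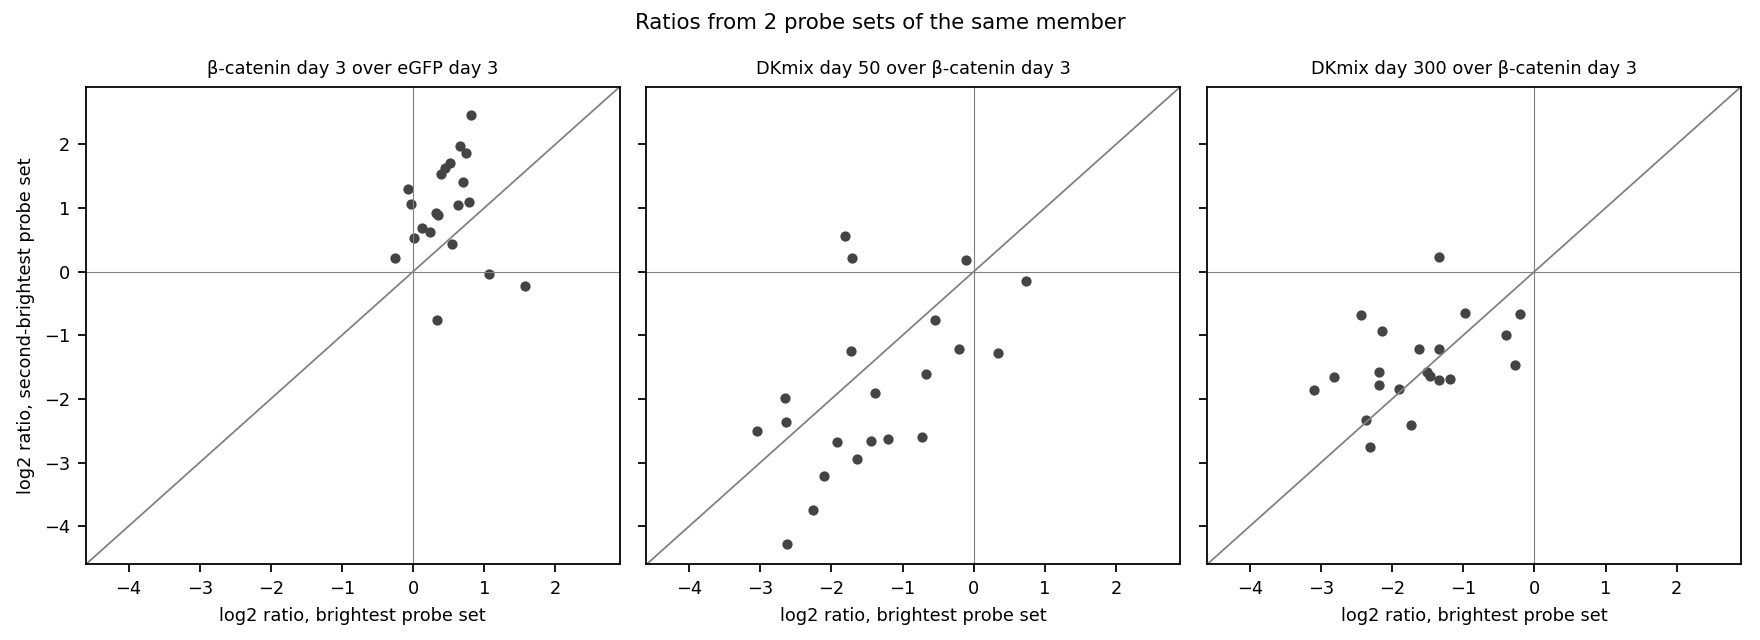
Log2 ratio by the brightest probe set (horizontal axis) against that by the second-brightest (vertical axis) for the 21 genes with both above the floor on all 4 arrays, with the line of equality. At day 3, 17 points lie above the line, and in DKmix day 300 over β-catenin day 3, 20 points have the same sign by both.

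Ribosomal RNA itself was read by control probe sets, which depend on how much of it entered the label and do not measure its amount in the cell. The 18S control at the 5′ end gave 16683 with β-catenin, 5039 with eGFP, 2226 at DKmix day 50 and 13541 at DKmix day 300. The 5′ signal was high on the arrays with low Gapdh ratios and low on the others. In the same order the middle 18S probe set gave 8443, 6353, 2012 and 10016, with the day 3 arrays closer together. The 3′ one gave 200.4, 172, 277 and 681 and did not follow the Gapdh ratios.

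Of the other factors of the same pathway, 106 had a probe set. Of these, 13 were at least 2-fold higher on the β-catenin than on the eGFP array and 3 lower, shares of 12.3% and 2.83% against 10.2% and 9.41% of all genes, with a median log2 ratio of 0.33. The higher share is near that of all genes. At DKmix day 50, 48 were at least 2-fold below β-catenin day 3 (45.3%, against 15.7% of all genes) and 1 above (16.0% of all genes), with a median of -0.96. At DKmix day 300, 51 were lower (48.1%, against 14.4% of all genes) and 2 higher (14.0% of all genes), with a median of -0.99.

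Tbl3, the UTP13 protein of UTP-B, gave 791, 133, 57.3 and 159.8, and the helicase Ddx56 gave 513, 130.5, 57.1 and 155. Wdr18, a partner of the 60S rixosome, gave 435, 147, 34.6 and 90.6. These resembled Wdr74 in being high on β-catenin day 3 alone. Taf1b, a subunit of the polymerase I selectivity factor, gave 144 with β-catenin and 28.7 with eGFP, the latter below the floor.

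At the other end of the day 3 comparison, log2 ratios were -1.38 for Ddx31, -1.23 for Cd3eap, a polymerase I subunit, -1.23 for Surf6 and -0.79 for Ddx55. The lowest at day 300 against β-catenin were Urb2 (474 to 65.4), Rrp15 (802 to 125), Pwp1 (1114 to 189) and the polymerase I subunit Polr1e (287 to 52.6). Against them stood Utp23 (175 to 424), Dcaf13 (1067 to 2001), the polymerase I subunit Znrd1 (821 to 1387) and Ddx31 (24.9, below the floor, to 96.6).

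The proteins of the ribosome itself, which these factors assemble, are given for comparison. Of 43 cytosolic ribosomal protein genes measured, 0 were at least 2-fold above eGFP on the β-catenin array and 3 below, against 10.2% and 9.41% of all genes, with a median of -0.41. At DKmix day 300 they had a median of -0.28 against β-catenin day 3, with 2 at least 2-fold lower and 1 higher, against 14.4% and 14.0% of all genes. At day 50 the median was 0.22, with 5 higher and 3 lower, against 16.0% and 15.7% of all genes. Only 2 of the 43 were highest on the β-catenin array. The 76 mitochondrial ribosomal protein genes lay between, with medians of 0.069 at day 3, -0.80 at day 50 and -0.80 at day 300. The differences between these groups were not tested.

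Cell type markers differed across the same arrays. The summed intensity of 12 mast cell markers was 3899 with β-catenin and 783 with eGFP, and 179745 and 78827 on the DKmix arrays at day 50 and day 300, with Mcpt1 below the floor on all 4. The 12 neutrophil markers summed to 13432, 103466, 739 and 225, and 12, 10, 3 and 1 of them were above the floor on eGFP day 3, β-catenin day 3, DKmix day 50 and DKmix day 300. The 12 macrophage and dendritic cell markers summed to 26754, 34074, 878 and 6078. Cd68 made up 5407 of the last sum. At day 300, 11 of the 12 were at least 2-fold below β-catenin day 3, against 14.4% of all genes. The day 3 sums hide differences both ways. With β-catenin, 7 were at least 2-fold higher than with eGFP and 4 at least 2-fold lower, against 10.2% and 9.41% of all genes. For 8 stem and progenitor markers the sums were 3767, 977, 6473 and 5795, with Flt3 below the floor on all 4. Of the 7 measured, 2 were higher on each DKmix array than with β-catenin and 5 were lower. The higher ones were Cd34 and Kit, which is also in the mast cell list. For 6 erythroid markers they were 4065, 4438, 1020.5 and 3052, of which Tfrc made up most and Alas2 was below the floor throughout. The part of cell makeup in the members' ratios was not tested.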

How the data were processed

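The authors deposited a linear intensity for each of 45101 probe sets on 4 arrays, computed with MAS5 according to the submitters' processing notes, whose version was not stated there. Arrays were rescaled to equal means after trimming 2% at either end, which changed the deposited values little. Gene symbols came from the platform annotation. Probe sets with several symbols (932) or none (9211) and 64 controls were left out. RefSeq (GRCm38.p6) gave the same symbol for all 50 members. Intensities were floored at 48.3 (percentile 50 of all values), and ratios are log2 of floored values. Genes under the floor on both arrays of a pair count as not measured, and 2-fold was the limit for a count. Probe set SD is that of the difference between the log2 ratios of 2 probe sets of a gene, divided by the square root of 2.

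The members and lists were chosen with earlier results of these data known. Every member is named. Of other pathway factors, the 4 highest and 4 lowest ratios at day 3 and at DKmix day 300 over β-catenin day 3 are named where the brighter array was at least 2 times the floor, and of each marker list the genes below the floor throughout. The rule also allowed the 3 brightest markers of a list, which are given here within the sums. The platform table matched 106 of 119 other pathway symbols, which include older names of the same genes, 44 of 81 cytosolic and 76 of 87 mitochondrial ribosomal protein symbols. The code was tested on simulated data. Python 3.11.15, pandas 2.3.3, NumPy 2.4.6, SciPy 1.17.1 and statsmodels 0.14.6 were used.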

Additional observations from a re-analysis of the deposited data

How the results depend on the processing

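No paired analysis was possible because each group held 1 array. Alternatives tried were quantile normalization, lowess centring, the scale as deposited, a scale on the 9 hybridisation control probe sets, floors at percentiles 25 and 75, the mean of all probe sets, leaving out _x_at and _s_at probe sets (48 members left), thresholds of 1.5-fold and 3-fold and, added after the data were seen, the second-brightest probe set. The median of β-catenin over eGFP ranged from 0.49 to 0.95, that of DKmix day 50 over β-catenin from -2.39 to -1.10 that of DKmix day 300 over β-catenin from -2.61 to -1.43, and those over eGFP from -1.29 to -0.48 at day 50 and from -1.53 to -0.44 at day 300. On the hybridisation control scale the median of all genes moved to 0.34, -0.73 and -0.90 in these comparisons, the members' medians for the DKmix arrays to -2.39 and -2.61, and the share of higher among all 2-fold calls to 75.7%, 11.1% and 8.46% (main 52.0%, 50.5% and 49.2%). On that scale 23 members were higher with β-catenin than eGFP, 32 were lower at day 50 than with eGFP, and 25 had both DKmix values 2-fold below both day 3 values. Of all genes, 3124 of 14601 were higher with β-catenin than eGFP on it, and 3730 of 13618 were lower at day 50 than with eGFP. Relative to all genes, the members' medians on that scale were 0.60, -1.66 and -1.71.

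The second-brightest probe set gave 23 members higher at day 3 and 35 lower at day 300 than with β-catenin. Over all genes these were 1646 of 13321 and 1817 of 12613. The second-brightest probe set turned the median of day 300 over day 50 to 0.27, and leaving out _x_at and _s_at probe sets turned it to 0.06. The mean of all probe sets left 4 members higher at day 300 than at day 50, against 1596 of 11224 genes. Counts at 1.5-fold and 3-fold were 24 and 4 for higher at day 3, 13 and 2 for higher and 19 and 3 for lower at day 300 than day 50, and 23 and 4 for both DKmix below both day 3. Over all 13374 genes measured at day 3, 2861 and 419 were higher with β-catenin. Of 13100 genes, 3232 and 893 were higher at day 300 than day 50, and 4085 and 674 were lower. At 3-fold, 23 members were below β-catenin at day 50 and 23 at day 300, and 10 were below eGFP at day 50 and 10 at day 300. Over all genes these were 966 of 13749, 683 of 12664, 835 of 13820 and 838 of 12810.

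Sign turns are given first for members at least 2-fold apart in the main analysis, and those of the DKmix arrays over eGFP are left out. By the second-brightest probe set the sign turned for Ddx21 (-0.22) and Rrs1 (-0.04) at day 3. At DKmix day 50 over β-catenin it turned for Ddx21 (0.55), Imp4 (0.38), Wdr12 (0.22), Noc2l (0.04) and Nip7 (0.08). At day 300 over β-catenin it turned for Polr1c (0.24), Imp4 (0.93) and Nip7 (0.43). By the mean of all probe sets Nop16 turned at day 3 (-1.16) and at day 50 (0.81). Without _x_at and _s_at probe sets Polr1c turned at day 300 (0.24). At day 300 over day 50, Polr1c (1.45), Mybbp1a (1.09), Bms1 (0.06), Pes1 (-0.21) and Wdr12 (-0.88) turned by the second-brightest probe set. Without _x_at and _s_at probe sets Polr1c (1.45) and Bms1 (0.06) turned, and by the mean Polr1c (0.16). Members less than 2-fold apart also turned by the second-brightest probe set and are not listed in full. Among them were Polr1a (0.79), Tcof1 (0.33), Fbl (1.03), Nop56 (0.99), Tsr1 (1.37), Rrp1b (0.70) and Npm1 (0.95) at day 300 over day 50. At day 3 they included Nop56 (1.29), Bms1 (1.06) and Wdr12 (-0.76). Causes were not tested. Between single arrays a difference has no replicate check, and the number of arrays limits its precision.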
